A study of Mus musculus with 8 samples.

Results

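Levels of the inositol 5-phosphatase mRNAs were compared between GFP-positive and GFP-negative cells of MAM326, a mouse mammary cancer cell line. The family was taken as 10 genes: Inpp5d (SHIP1), Inppl1 (SHIP2), Inpp5a, Inpp5b, Inpp5e, Inpp5f, Inpp5j, Synj1, Synj2 and Ocrl. Every non-control probe whose gene name in the array files was one of these was used, 19 probes of the 55681 on the array. Of the 19 probes, 17 entered the tests because at least 4 of the 8 arrays read them well above background. The other 2, 1 probe of Inpp5f and 1 of Ocrl, were well above background on 0 arrays, so each of the 10 genes kept at least 1 probe.

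Both groups were sorted by flow cytometry from the same line, grown in serum-containing medium with no other agent named, 2 days after seeding. The GFP-positive group and the GFP-negative group each comprised 4 one-colour Agilent arrays, from 4 experiments at different passages. The labels give 1 line, name no genotype or animal, and do not tie arrays to experiments, so p-values measure only the spread between these 8 arrays, which may be partly technical. The sources used here do not say what drives GFP in MAM326, so a sort that acts on Inpp5d expression and a difference between the sorted cells cannot be told apart.

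Inositol 5-phosphatases remove the phosphate at the D5 position of the inositol ring. SHIP1 and SHIP2 act on the phosphatidylinositol trisphosphate that class I PI 3-kinases make, which recruits the kinase AKT to the membrane, and thereby act as a brake on that signal. Several of the other family members act mainly on other phosphoinositides of the endocytic pathway, Golgi and cilium, or on soluble inositol phosphates. SHIP1 is known chiefly as an enzyme of blood cells, and a shorter product of the same gene, s-SHIP, is made from an internal promoter in stem cells. Inpp5d was also the only family member with s-SHIP among its RefSeq names.

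Each measurement rests on a probe of 60 bases, and 3 probes are shown because the results turn on them: that of Inpp5d, which rose, that of its closest relative Inppl1, and the Synj2 probe with the lowest p-value after Inpp5d. Capitals mark the longest run of bases that the probe shares, on either strand, with a probe of another family member. For Inpp5d bases 7 to 36 are given and for Inppl1 bases 1 to 30, and that of Synj2 is whole.
Inpp5d: ttgctttttgatatatcaggatTAATGTAG
Inppl1: ggtggtcggcttgttgtctTCAATAAAtta
Synj2: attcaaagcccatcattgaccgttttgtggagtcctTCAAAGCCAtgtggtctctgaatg
The Inpp5d probe shared at most 8 consecutive bases with a probe of another member, that of Ocrl. Against the other 55680 probes of the array its longest shared run was 15 of 60 bases, with a probe of Cflar. The probe lies on the plus strand at chr1:89616958-89617017 (mm9), starting at base 4812 of the transcript NM_010566, and the array files tie it to 3 RefSeq transcripts of the gene. It therefore gives 1 value for those transcripts together and no value for s-SHIP on its own. Which exon or untranslated region the probes lie in was not analysed here.

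Inpp5d was the only family member whose mRNA passed the test, and it was higher in GFP-positive cells. Levels are log2 processed signals relative to each array's 75th percentile, so that 0 is that percentile, and the brightness of a probe says nothing of how abundant one mRNA is beside another. Inpp5d was at -0.35, -0.71, -0.38 and -0.93 on GFP-positive arrays 1 to 4 and at -2.96, -4.41, -3.91 and -3.70 on GFP-negative arrays 1 to 4. The lowest GFP-positive array stood above the highest GFP-negative array, GFP-negative replicate 1. In the processed signal before scaling the values were 419, 268, 467 and 257 against 63.7, 25.8, 30.8 and 37.2, and the probe was well above background on all 8 arrays.

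The group means were -0.59 ± 0.28 (SD, n = 4) and -3.75 ± 0.60 (SD, n = 4). The difference was 3.16 ± 0.29 on the log2 scale (standard error; 95% interval 2.49 to 3.83), or 8.93-fold, with an adjusted p of 0.00207 in limma over all tested probes. Among the 27589 probes tested this rise was the 15th largest, and among 19775 genes, each by its brightest probe, the 13th largest. Array-wide, 2.00% of the tested probes passed in either direction and 1.52% passed as higher in GFP-positive cells. Over 21 of 22 settings of the processing the call was kept, and the log2 difference ran from 2.06 to 3.69. The lowest value, 2.06, came with another background correction (normexp), so the size of the fold depends on that step. The exception was the comparison of 2 arrays against 2 within the second row of the slide, at 2.62 with an adjusted p of 0.345, where 0 probes of the whole array passed in limma.

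The 8 arrays lay in 2 rows of 1 slide. GFP-positive replicates 1 and 3 and GFP-negative replicates 2 and 4 lay in the first row, where the difference was 3.69, against 2.62 in the second row. The 2 GFP-positive arrays of the first row were the highest of their group, and GFP-negative replicate 2, also of that row, was the lowest of the GFP-negative arrays. The difference between rows, -1.07, had a p of 0.0766 and an adjusted p of 0.316 in limma, so the rows were not shown to differ, and 18.9% of all tested probes had a p under 0.05 in that test. Row and replicate number cannot be told apart here. Paired by number, the rises were 2.62, 3.70, 3.53 and 2.78, all 4 upward.

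**Figure D1:**
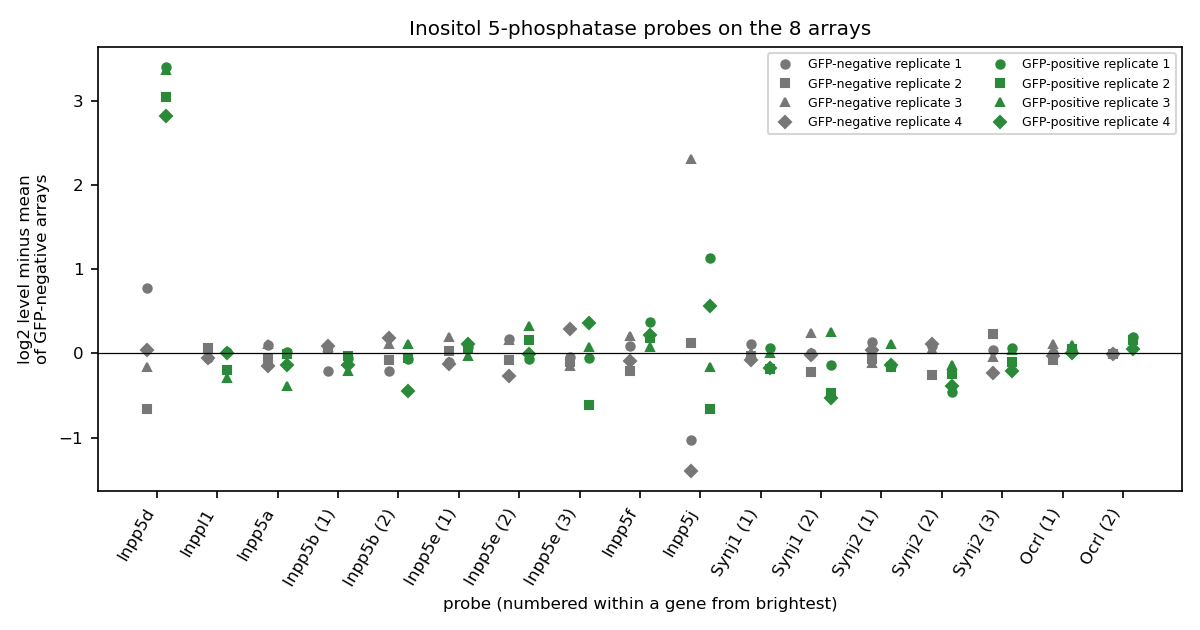
Level of each of the 17 tested probes on each array, as log2 level minus the mean of the 4 GFP-negative arrays (grey, GFP-negative; green, GFP-positive; symbol shape, replicate number). The 4 GFP-positive arrays of Inpp5d stand clear of its GFP-negative arrays, Inpp5j scatters widely in both groups, and the other probes lie nearer 0.

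Of the 16 tested probes of the other 9 genes, 0 passed in limma, and at an unadjusted p under 0.05 there were 0 higher and 1 lower, where 2137 of all 27589 tested probes were higher and 3852 lower. Their differences ran from -0.30 to 0.22, with a median of -0.07, beside -0.06 over all tested probes. Over the whole family 1 of 17 probes passed, Inpp5d, against the 2.00% of all probes given above. The groups did not overlap for 2 of the 17, the probe of Inpp5d and 1 of Ocrl, where 15.8% of all tested probes had groups that did not overlap. No probe of the 9 other genes passed under any of the 22 settings run.

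The other SH2-domain 5-phosphatase, Inppl1, did not follow Inpp5d. Inppl1 encodes SHIP2, which is found in most tissues. Its levels were 5.10, 4.89, 4.79 and 5.08 on GFP-positive arrays and 5.03, 5.14, 5.13 and 5.02 on GFP-negative arrays. The groups overlapped, and their ranges spanned only 1.28-fold over the 8 arrays. The difference was -0.12 ± 0.09 (adjusted p = 0.5003, limma), with a 95% interval of -0.33 to 0.10.

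Of the enzymes of the endosome, Golgi and primary cilium, Ocrl and Inpp5b are close paralogs, and Ocrl is the gene of Lowe syndrome in humans. The brighter Ocrl probe differed by 0.05 ± 0.07 (adjusted p = 0.747) and the second by 0.13 ± 0.07 (adjusted p = 0.299). On the second probe the GFP-positive arrays were at 3.102, 3.05, 3.00 and 2.96 and the GFP-negative arrays at 2.90, 2.89, 2.92 and 2.89. The groups did not overlap on that probe, yet it did not pass, and the 2 Ocrl probes were among the least variable on the array, with within-group SDs at percentiles 2.85 and 0.537 of all tested probes. The 2 Inpp5b probes, 35.0% and 45.0% G and C, differed by -0.11 and -0.12 (adjusted p = 0.521 and 0.678). Inpp5e, whose product works at the primary cilium, had 3 tested probes, which differed by 0.05, 0.10 and -0.06 (adjusted p = 0.768, 0.690 and 0.897).

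The synaptojanins carry a SAC phosphatase domain beside the 5-phosphatase domain and act in the uncoating of endocytic vesicles. The 2 Synj1 probes differed by -0.07 and -0.22 (adjusted p = 0.684 and 0.537). Of the 3 Synj2 probes, the one printed above was at -1.64, -1.43, -1.32 and -1.57 on GFP-positive arrays and at -1.09, -1.44, -1.14 and -1.08 on GFP-negative arrays. Only GFP-negative replicate 2 lay within the range of the GFP-positive arrays. Its difference of -0.30 ± 0.11 had an unadjusted p of 0.0271 and an adjusted p of 0.175 in limma, so it did not pass. The other Synj2 probes, which start further along their transcripts, differed by -0.09 and -0.05 (adjusted p = 0.639 and 0.842), and their correlations with that probe over the 8 arrays were 0.67 and -0.18.

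Inpp5f, also called Sac2, did not pass. It has a SAC domain and is now known as a 4-phosphatase of endosomes. Its tested probe was at -1.68, -1.87, -1.97 and -1.83 on GFP-positive arrays and at -1.96, -2.25, -1.84 and -2.13 on GFP-negative arrays. The groups overlapped through GFP-negative replicates 1 and 3, and the difference was 0.21 ± 0.11 (adjusted p = 0.314, limma). Inpp5a, which acts on soluble inositol phosphates, differed by -0.13 ± 0.11 (adjusted p = 0.553).

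Inpp5j, also called PIPP, was the family member these arrays measured least well. Its levels were -2.55, -4.34, -3.84 and -3.12 on GFP-positive and -4.71, -3.56, -1.37 and -5.08 on GFP-negative arrays, well above background on 3 arrays of each group. GFP-negative replicate 3 was the highest of all 8, and levels spanned 13.1-fold. The difference was 0.22 ± 0.80 (adjusted p = 0.905, limma), with a 95% interval of -1.63 to 2.06. Its within-group SD was at percentile 99.5 of all tested probes. These arrays do not exclude a difference as large as that interval's ends.

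**Figure D2:**
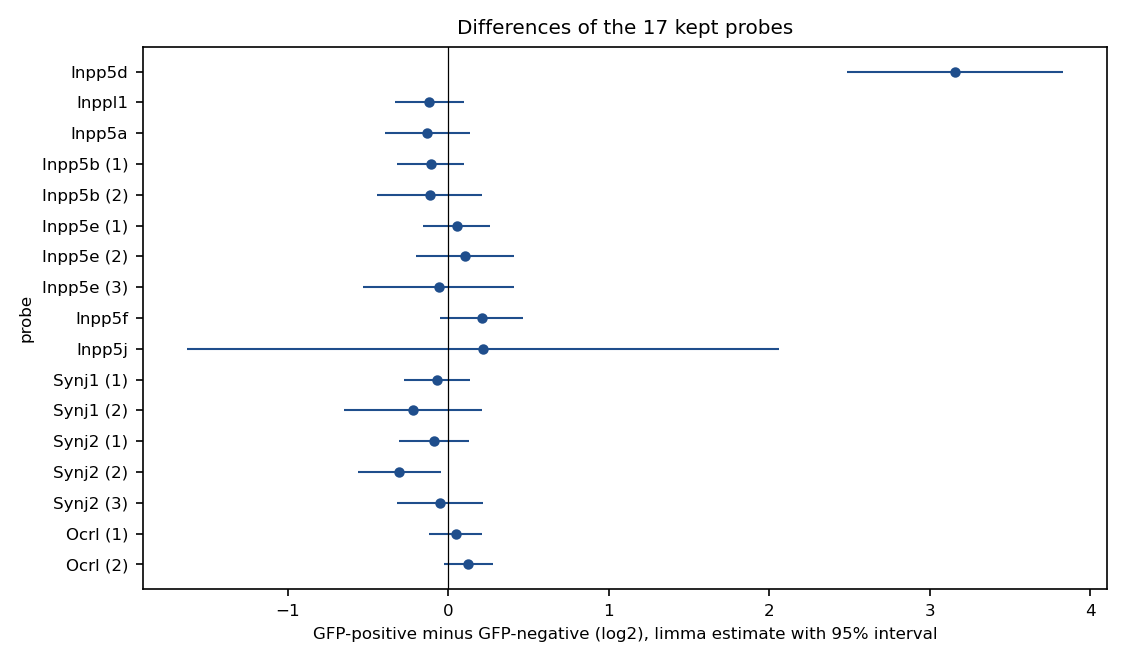
GFP-positive minus GFP-negative difference (log2) of each of the 17 tested probes, as the limma estimate with its 95% interval over 4 arrays against 4. The interval of Inpp5d runs from 2.49 to 3.83, that of Inpp5j from -1.63 to 2.06, and every interval but those of Inpp5d and the second Synj2 probe spans 0.

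The difference of Inpp5d was tested against that of each other gene, by its brightest tested probe, as the log2 difference between the 2 probes within each array. Inpp5d exceeded all 9, by 2.94 (against Inpp5j) to 3.29 (against Inpp5a). Against Inppl1 the excess was 3.27, and against Ocrl 3.11. In each of the 9 comparisons the GFP-positive arrays lay above every GFP-negative array. A two-sided exact permutation test gave p = 0.0286 for each, which is the smallest that 4 arrays against 4 allow, and 0.0286 after adjustment over the 9 comparisons. All 9 comparisons reuse the same Inpp5d values, and most of the other probes varied little beside the Inpp5d difference. The 9 p-values therefore restate the rise of Inpp5d and are not separate support for it.

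Of the other genes of phosphoinositide signalling, few passed the test. Of 100 genes in 10 lists (phosphatases, kinases, inositol phosphate enzymes, the AKT arm, SHIP1 partners and FoxO targets), 90 were tested, each by its brightest probe. In limma 1 rose and 0 fell, where 2.11% of all genes passed in either direction. At an unadjusted p under 0.05, 8 were higher and 7 lower, where 7.77% of all genes were higher and 14.5% lower. Their median difference was -0.0058 beside -0.06 over all genes, and the groups did not overlap for 9 of the 90, against 16.6% of all genes. The 10 genes not tested, among them Tpte, Pik3cg, Pip5k1b, Btk, Gab2, Fcgr2b, Kit, Ly9 and Slamf1, were well above background on at most 1 array each.

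The gene that rose was Pik3r3, a regulatory subunit of class I PI 3-kinase. It was at 2.46, 2.33, 2.28 and 2.42 on GFP-positive arrays and at 1.66, 1.72, 1.90 and 1.76 on GFP-negative arrays. The groups did not overlap, and the rise was 0.61 ± 0.08, or 1.53-fold (adjusted p = 0.0111, limma). The call was lost under 6 of 21 alternatives, among them leaving out GFP-positive replicate 1 (0.58, adjusted p = 0.0567) and scaling to the array median (0.49, adjusted p = 0.165). The other 7 class I subunits tested ran from -0.28 for Pik3r1 upward without passing, and Pik3ca, the catalytic subunit p110 alpha, differed by -0.17 ± 0.11 (adjusted p = 0.402).

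Other phosphatases of the pathway did not pass. Inpp5k, a further 5-phosphatase, differed by 0.20 ± 0.08 (adjusted p = 0.215). Inpp4b, which acts on the product of SHIP1, differed by -0.22 ± 0.30 (adjusted p = 0.704). Downstream, Akt1 was at 6.17, 6.37, 6.28 and 6.08 on GFP-positive and 6.51, 6.44, 6.41 and 6.66 on GFP-negative arrays. The groups did not overlap, but the difference of -0.28 ± 0.09 did not pass (adjusted p = 0.143, limma). Tec, a kinase whose lipid-binding domain reads the product of PI 3-kinase, differed by 0.53 ± 0.20 (adjusted p = 0.180).

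Among adaptors and receptors linked to SHIP1, 11 of 15 genes were tested and 0 passed in limma, with 0 at an unadjusted p under 0.05. Array-wide, 2.11% of all genes passed in either direction, and at that unadjusted p 7.77% were higher and 14.5% lower. The largest difference of that list was that of Dok2, an adaptor of blood cells, at 0.71 ± 0.42 (adjusted p = 0.362), which was 1.70 within slide row 1 and -0.28 within row 2. Ptpn6 (SHP-1), the blood-cell tyrosine phosphatase, differed by 0.06, Grb2 by -0.0052 and Shc1 by -0.08. Among transcripts that FoxO factors, which AKT holds in check, are known to raise, 11 of 13 had a positive sign and 0 passed in limma, although 2 were higher at an unadjusted p under 0.05 (7.77% of all genes). These were Fbxo32, a muscle-atrophy ubiquitin ligase, at 1.00 ± 0.29 (adjusted p = 0.112), and Txnip, a thioredoxin inhibitor, at 0.99 ± 0.43 (adjusted p = 0.229). Both were larger than the difference of Pik3r3, with more spread between arrays. Over the settings run Fbxo32 ranged from 0.31 to 1.68, passing within slide row 1 alone, and Txnip from 0.025 to 1.95. The median of that list was 0.19, beside -0.06 over all genes, of which 7779 of 19775 had a positive sign.

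**Figure D3:**
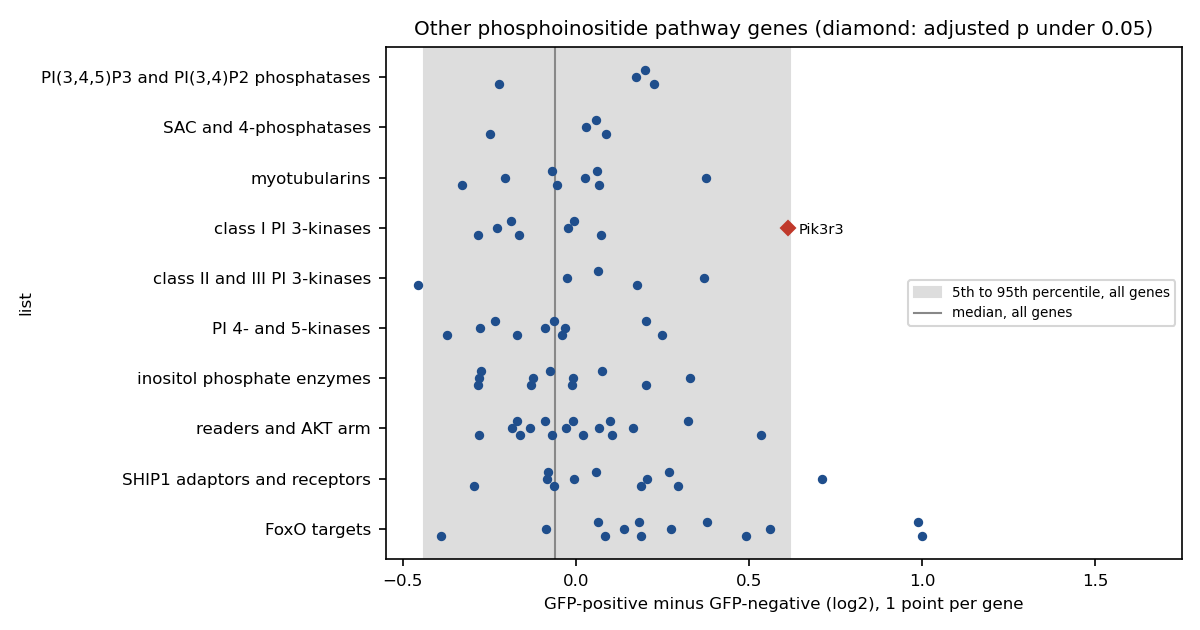
GFP-positive minus GFP-negative difference (log2) of each tested pathway gene, 1 point per gene in rows by list, with the median and the 5th to 95th percentile of all 19775 genes in grey. Pik3r3 at 0.61, drawn as a diamond, is the one gene past the threshold, and most points lie within the grey band.

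Since SHIP1 is best known from blood cells, markers of cells that a sorted fraction might hold were measured too. Of 19 leukocyte markers 10 were tested. Cd53, Laptm5, Spi1 and Lyz2 were among those well above background on no array. Ptprc (CD45), Vav1, Tyrobp and Adgre1 were so on 1 GFP-positive array each and on no GFP-negative array. Csf1r and Itgam, the brightest of the list, were well above background on all 8 arrays. They differed by 0.29 ± 0.36 and 0.03 ± 0.11 (adjusted p = 0.681 and 0.917, limma). Cd48, Cd3e, Cd79a and Aif1 were also above background on all 8 arrays and did not pass. The summed level of the list was 20.3 to 28.4 on GFP-positive and 17.8 to 23.9 on GFP-negative arrays, in units of each array's 75th percentile, a sum that the brightest probes carry. In limma 1 marker rose, Cd68, a lysosomal glycoprotein of macrophages (1.00 ± 0.11, adjusted p = 0.00514), and 0 fell. At an unadjusted p under 0.05, 2 were higher, Cd68 and the monocyte receptor Cd14 (0.56 ± 0.12, adjusted p = 0.0564, passing under 6 alternatives), and 1 was lower, the actin regulator Coro1a (-0.50 ± 0.13, adjusted p = 0.0918, passing under 2). Of all genes, 2.11% passed in either direction, and at that unadjusted p 7.77% were higher and 14.5% lower. The 6 epithelial markers (Krt5, Krt14, Krt8, Krt18, Epcam and Cdh1) were all tested, with sums of 505.6 to 742.7 and 415.6 to 665.7. All 6 had a positive sign, with a median difference of 0.44. In limma 0 passed, although 2 were higher at an unadjusted p under 0.05 (7.77% of all genes). Of 6 fibroblast markers 5 were tested, all with a negative sign, and 0 passed in limma, with 1 lower at an unadjusted p under 0.05 (14.5% of all genes). Their differences were large but varied between arrays, from -2.12 to -1.05, with a median of -1.75. Their sums were 3.69 to 59.2 on GFP-positive and 13.9 to 167.2 on GFP-negative arrays. Of 5 endothelial markers 2 were tested and 0 passed, with 0 at an unadjusted p under 0.05. The part of these markers in the Inpp5d difference was not tested, and in such bulk samples fewer cells of a type and less RNA per cell cannot be told apart.

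The genes whose levels were most like those of Inpp5d from array to array lay outside the family. Likeness was measured as Pearson's r with Inpp5d over the 8 arrays, which share the 2 groups and the slide, across 20086 probes of 14836 named genes. The 5 highest, each gene by its probe with the highest r, were Bax (0.999), Dglucy (0.997), Cdkn1a (0.996), Dcxr (0.996) and Slc2a9 (0.994). Over all probes searched, 176 reached at least 0.95. Among family members the highest was the second Ocrl probe, at 0.86, followed by Inpp5f at 0.68, and the lowest the middle Synj2 probe, at -0.63. The difference between the groups enters this r together with the scatter within them, and the 5 are the top of a search of many probes, so they and the family members are described and not compared.

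All 5 were higher in GFP-positive cells, a direction that the choice by r with Inpp5d favours. Bax, a pro-apoptotic BCL2-family protein, rose by 0.68 ± 0.09 (adjusted p = 0.00985). Cdkn1a, the cyclin-dependent kinase inhibitor p21, was at 4.98, 4.70, 5.12 and 4.53 on GFP-positive and 3.33, 1.96, 2.52 and 2.65 on GFP-negative arrays. As with Inpp5d, GFP-negative replicate 1 was the highest and replicate 2 the lowest of the GFP-negative arrays, and the rise was 2.21 ± 0.28 (adjusted p = 0.00813, limma). Dcxr, a sugar reductase, and Dglucy, a glutamate-metabolising enzyme, rose by 2.80 ± 0.19 and 2.06 ± 0.18 (adjusted p = 0.000717 and 0.00175). The Dcxr probe was not the brightest tested probe of its gene, whose values are not given here. Slc2a9, a urate transporter, was well above background on no GFP-negative array and was tested only through its GFP-positive arrays, so its r and its test rest partly on background signal. It was 3.51-fold higher, taking as a floor for each GFP-negative array the lowest signal well above background. That floor is the lowest such signal of any probe and not a detection limit, so the fold is not a strict lower bound. It holds for the processed signal only, since another background correction gave a log2 difference of 0.64.

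With the group means taken out, so that only the scatter within groups counts, the 5 most alike were Cdkn1a (0.992), Kif20b (0.979), Bax (0.979), Hgs (0.976) and Upf3b (0.974). Of these Cdkn1a and Bax are also among the 5 above. Kif20b, a mitotic kinesin, Hgs, an endosomal sorting protein, and Upf3b, a factor of nonsense-mediated decay, differed between the groups by 0.05, 0.06 and -0.02 (adjusted p = 0.901, 0.650 and 0.933), and each changed sign under some settings. The scatter within groups includes any difference between the slide rows, which was not taken out. In the first and second row the group difference was 2.74 and 1.69 for Cdkn1a and 0.82 and 0.55 for Bax. It was 0.32 and -0.23 for Kif20b, 0.13 and -0.0014 for Hgs, and 0.07 and -0.10 for Upf3b. Over the family this within-group r with Inpp5d ran from -0.66 for the brighter Inpp5b probe to 0.67 for the brighter Synj1 probe.

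**Figure D4:**
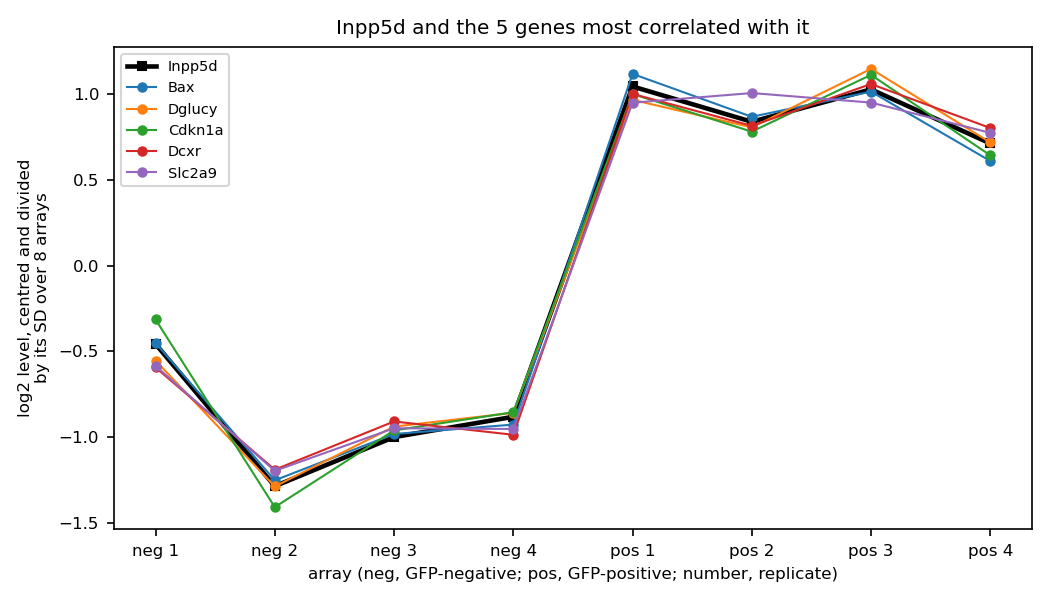
Log2 level on each of the 8 arrays, centred and divided by the SD over the arrays, for Inpp5d (black squares) and the 5 genes with the highest Pearson r with it. In all 6 genes GFP-negative replicate 1 is the highest and replicate 2 the lowest of the GFP-negative arrays, and GFP-positive replicate 4 is the lowest of the GFP-positive arrays.

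Of the genes beside Inpp5d on chromosome 1, Ugt1a6b alone had a probe that passed. Within 500 kb of its probe lay 26 further probes, of which 13 were tested. The 11 of these outside Ugt1a6b ran from -0.58 to 0.11. Of them 0 passed in limma, where 2.00% of all tested probes passed in either direction. At an unadjusted p under 0.05 in limma, 2137 of all 27589 tested probes were higher and 3852 lower. Of the 11, 1 was lower at that p, a probe of Eif4e2. The nearest on the left was Neu2, a sialidase (0.11 ± 0.46, adjusted p = 0.916), and on the right Atg16l1, an autophagy factor (-0.04 ± 0.07, adjusted p = 0.784). Eif4e2, Gigyf2, Ngef, Dgkd and Usp40 were the other named genes tested, and Efhd1, Kcnj13, Snorc, Sag, Ugt1a10, Ugt1a6a and Dnajb3 were too dim to test.

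Ugt1a6b is a glucuronosyltransferase of a gene cluster whose members share exons. Its probe 387 kb from Inpp5d was at -2.57, -1.88, -1.18 and -2.30 on GFP-positive and -3.86, -4.24, -4.95 and -3.36 on GFP-negative arrays. The groups did not overlap, and the difference was 2.12 ± 0.40 (adjusted p = 0.0416, limma). That call was lost whichever 1 of the 8 arrays was left out, with adjusted p up to 0.106, and in all under 14 of 19 alternatives, and the difference was 1.09 with normexp. The second probe, at 499 kb, differed by 2.16 ± 0.45 without passing (adjusted p = 0.0554), though it passed under 4 of 21 alternatives (adjusted p from 0.0273 there), and how far it detects other members of the cluster is uncertain. GFP-negative replicate 3 was the lowest array on both Ugt1a6b probes, unlike on Inpp5d.

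**Figure D5:**
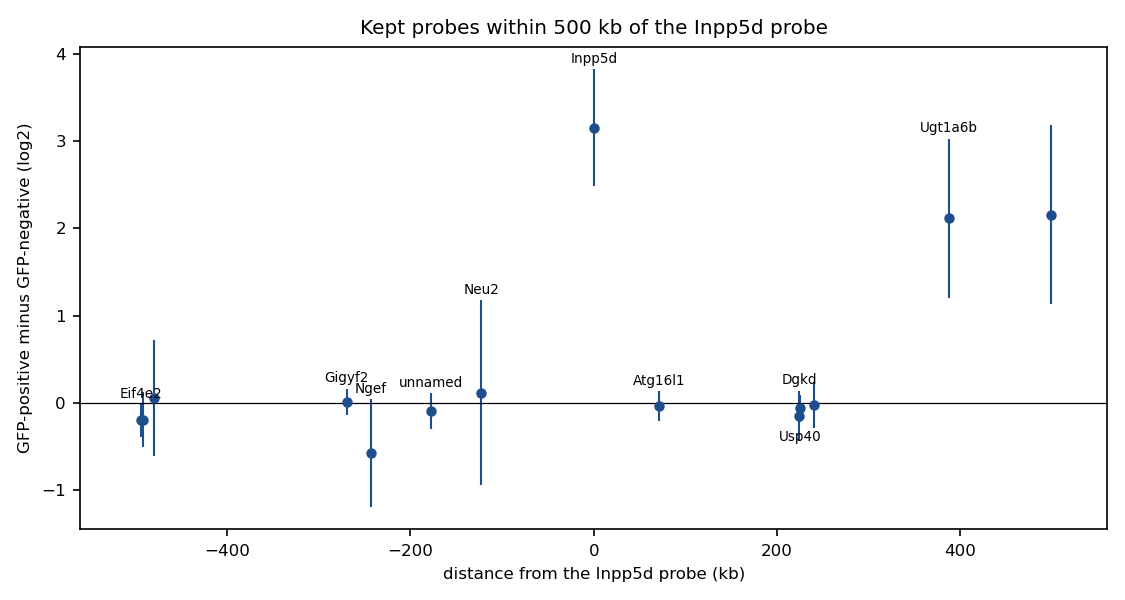
GFP-positive minus GFP-negative difference (log2, limma estimate with 95% interval) of Inpp5d and of the 13 tested probes within 500 kb of it, by distance from the Inpp5d probe in kb. Inpp5d at 3.16 and the 2 Ugt1a6b probes at 2.12 and 2.16 stand above the other 11.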

How the data were processed

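The deposited intensity values were Agilent Feature Extraction output (version 10.7.3.1, protocol GE1_107_Sep09, mm9 probe positions, per the file headers), with the processed signal already background-corrected. The sources used here do not give the later steps. The authors' deposited flags (other: well above background, saturated, outlier) were read as given. Outlier spots (106 to 186 per array) were left out, 0 were saturated, and 45.1% to 57.4% of probes were well above background. The log2 processed signal was set relative to each array's 75th percentile over non-control spots and averaged by probe. The 27589 probes that 4 or more of the 8 arrays read well above background were fitted with limma 3.58.1 (R 4.3.3, package data.table, version 1.17.8), without a replicate block, calling probes at a Benjamini-Hochberg adjusted p under 0.05. The number of arrays limits precision. Symbols came from the files or from RefSeq genes of GRCm38.p6 by accession (27509 probes, 16 of the 19 family probes). Of each list and marker gene the brightest tested probe was used. Genes found by correlation were taken by their probe with the highest r. Near Inpp5d every tested probe was used. Named genes were the family, Inpp5k, Inpp4b, Pik3ca, Akt1, list genes that passed, genes within 500 kb of the Inpp5d probe and the 5 most alike by each of 2 correlations. Other genes named, such as Pik3r1, Ptpn6, Grb2, Shc1, Fbxo32, Txnip, Dok2, Tec, Cd14 and Coro1a, were chosen after their values were seen. Some results are not reported here. The members and lists were chosen with earlier results of these data known. Tested on simulated data for 27573 probes, the steps recovered 22%, 68%, 80% and 94% of log2 differences of 0.5, 1, 2 and 3, with 8 false calls. The simulated noise was independent between arrays and probes, with no slide-row pattern, so these rates need not hold for the real arrays. Alternatives were other background corrections, scalings, filters, fits, blocks and leaving out each array.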

Additional observations from a re-analysis of the deposited data

Results flagged for a closer look

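In 2 of 34 groups of 4 arrays, 1 array stood far from the other 3, and chance alone does this in about 1 group in 20. On the brighter Inpp5b probe GFP-negative replicate 1, at 2.41, lay below the others, at 2.66, 2.69 and 2.70, a gap of 0.870 of the group's whole range. On the brightest Synj2 probe GFP-positive replicate 3, at 1.93, lay above the others, at 1.67, 1.66 and 1.68, a gap of 0.912 of the range. Both genes' differences were small and did not pass in limma.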

How the results depend on the processing

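Inpp5d kept its direction under all 21 alternatives and its call under 20. The exception was slide row 2 alone (2.62, adjusted p = 0.345), where 0 family probes, 0 pathway genes and 0 probes of the array passed. Without each array in turn it ran from 2.94 to 3.42 (adjusted p 0.00105 to 0.0126). The counts moved more. With normexp 896 probes of the array passed (510 higher, 386 lower, against 420 and 132), with array median scaling 241 (216 and 25), without a filter 160 (159 and 1) and with slide row as a block 335. With an intensity trend and robust prior 1348 passed (646 and 702), with array weights 2114 (971 and 1143), 1277 within row 1 and 181 to 439 without each array. With probes above background on all 8 arrays 770 passed (468 and 302). Pathway genes past the threshold numbered 0 with median scaling, without a filter and without GFP-positive replicate 1 (0 to 1 over single arrays left out), 2 with the trend, 3 with array weights and 2 within row 1. Median scaling moved the median difference of all probes from -0.06 to -0.18.

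Same-numbered arrays did not deviate together (correlations -0.018, 0.08, 0.03 and 0.16). The highest correlation of each GFP-negative array with a differently numbered GFP-positive array was 0.57, 0.62, 0.40 and 0.30. Same-numbered arrays always lay in different rows of the slide. A difference between rows and a lack of pairing therefore cannot be told apart, and whether the numbers pair the samples was not settled. With the replicate block 220 probes and 0 pathway genes passed, and Inpp5d kept its call (adjusted p = 0.0140). A block by slide or scan date was not run, since all arrays shared 1 slide and 1 scan time.

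Signs turned only for differences that did not pass. With normexp Inpp5j was at -0.031, Kif20b at -0.0031 and Upf3b at 0.0063. Upf3b was at 0.029 with quantile normalization and 0.0091 with array weights. With median scaling Inpp5e was at -0.068, Ocrl -0.076, Kif20b -0.077 and Hgs -0.059. Within row 1 Synj1 was at 0.094, Inpp4b 0.17, Pik3ca 0.020 and Upf3b 0.070. Within row 2 Inpp5j was at -0.69, Ocrl -0.027, Kif20b -0.23 and Hgs -0.0014, and Dok2 at -0.28. Leaving out single arrays, Inpp5j ran from -0.25 to 0.99, Kif20b from -0.089 to 0.17 and Upf3b from -0.053 to 0.036. The causes were not tested. For the named genes other than Inpp5d that passed, Cd68 among them, 135 of 164 alternative values kept the call and 29 lost it.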
